A study of Mus musculus with 5 samples.

Results

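The proneural factors and newborn neuron markers are 9 mouse genes whose transcripts mark the step from a dividing neural progenitor to a neuron. They were chosen by symbol from a table of 23284 genes, with earlier results of these data known, and the rule itself uses no measured value. Of these genes, 5 encode basic helix-loop-helix (bHLH) transcription factors (Neurog1, Neurog2, Neurod1, Neurod4 and Atoh1) and 4 encode proteins of young neurons (Elavl3, Elavl4, Tubb3 and Dcx). All 9 had a row in every sample and all 9 passed the filter on low values, which left 12703 genes.

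RNA was sequenced from the neural tubes of mouse embryos labelled E8.5, while the study's text gives a slightly later stage. The tubes carried both copies of EpoR, the erythropoietin receptor gene (EpoR+/+, wild type, n = 2), 1 copy (EpoR+/-, heterozygote, n = 1) or none (EpoR-/-, EpoR-null, n = 2). The comparison asked which transcripts change when the receptor is missing, and the 3 littermates with at least 1 copy of the gene served together as controls. The deletion was constitutive, so every tissue of an EpoR-null embryo lacked the receptor. The litter of each embryo, and whether a library held 1 tube or several, are not given in the sources used here, so the spread between samples may be partly technical.

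Proneural bHLH factors bind DNA as dimers with E proteins at short sites called E-boxes, and their activation commits a progenitor to a neuronal fate. In the classical order the neurogenins act first, NeuroD factors follow as cells leave the cycle, and RNA-binding and cytoskeletal proteins of the neuron appear last. Notch signalling between neighbouring cells holds the proneural genes down, so that only some progenitors differentiate at a time. At the stage studied here the first neurons of the hindbrain and spinal cord are being born.

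Reads counted on genes ranged from 19316126 to 41169218 per sample, so that 3 reads corresponded to between 0.0715 and 0.152 CPM (reads of a gene relative to all reads on genes of the sample, after TMM scaling of library sizes). Chi-square tests of the counts found no pair of samples that agreed within sampling noise. Epor itself had 57 and 68 reads in the wild type samples, 11 in the heterozygote, then 7 and 19 in EpoR-null replicates 1 and 2, so that the heterozygote (0.476 CPM) lay below EpoR-null replicate 2 (0.669 CPM) and the row did not pass the test (FDR = 0.2797, edgeR exact test). All 12 neural progenitor markers passed the filter, among them Sox2 (220.0 to 309.2 CPM), and they summed to between 2720 and 3576 CPM. The heterozygote stood apart by its low content of other tissues. Its mesoderm markers summed to 10.9 CPM against 58.7 to 136.5 CPM elsewhere, its endothelial markers to 26.5 CPM against 195 to 342.3 CPM, and its erythroid markers to 44.7 CPM against 605.1 to 1694 CPM.

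Promoter windows of all 9 genes were found in RefSeq on GRCm38.p6, 14 windows in total, each running from 250 bases before to 50 bases after an annotated start. The windows of 4 genes are printed 5′ to 3′ on the gene's own strand because these genes carry the contrast described further on. Neurog2 was the member that differed least between the EpoR-null samples and Dcx the one that differed most, and Elavl3 and Elavl4 are close relatives with like profiles. Capitals mark every E-box, written CANNTG, which reads the same way on both strands.
Neurog2, chr3:127632886-127633185, plus strand: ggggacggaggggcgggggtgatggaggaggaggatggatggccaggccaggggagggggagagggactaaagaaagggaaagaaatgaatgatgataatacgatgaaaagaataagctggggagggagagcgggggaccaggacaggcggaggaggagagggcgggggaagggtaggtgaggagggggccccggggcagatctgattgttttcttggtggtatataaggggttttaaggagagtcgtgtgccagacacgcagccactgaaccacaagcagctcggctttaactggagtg
Dcx, chrX:143933170-143933469, minus strand: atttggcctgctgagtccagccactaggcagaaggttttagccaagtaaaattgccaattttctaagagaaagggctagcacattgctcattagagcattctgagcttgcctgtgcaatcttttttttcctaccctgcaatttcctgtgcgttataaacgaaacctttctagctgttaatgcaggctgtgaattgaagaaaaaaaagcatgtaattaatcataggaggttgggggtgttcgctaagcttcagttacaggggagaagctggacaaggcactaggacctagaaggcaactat
Elavl3, chr9:22051974-22052273, minus strand: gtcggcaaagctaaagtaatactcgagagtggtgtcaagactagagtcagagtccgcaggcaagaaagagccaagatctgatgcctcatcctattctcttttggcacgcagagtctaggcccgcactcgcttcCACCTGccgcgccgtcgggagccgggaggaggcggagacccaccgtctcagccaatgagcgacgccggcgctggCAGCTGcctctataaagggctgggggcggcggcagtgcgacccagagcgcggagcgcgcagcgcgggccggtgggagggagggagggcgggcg
Elavl4, chr4:110287478-110287777, minus strand: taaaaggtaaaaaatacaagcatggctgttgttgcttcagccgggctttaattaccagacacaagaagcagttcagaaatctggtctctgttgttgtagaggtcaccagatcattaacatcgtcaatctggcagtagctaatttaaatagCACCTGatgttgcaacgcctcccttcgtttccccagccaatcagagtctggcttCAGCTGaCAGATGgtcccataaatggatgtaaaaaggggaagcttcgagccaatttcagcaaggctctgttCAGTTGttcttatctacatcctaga
The printed Neurog2 and Dcx windows held no CANNTG, the Elavl3 window held 2 and the printed Elavl4 window held 4. Elavl4 has 4 annotated windows, and those not printed held 0, 4 and 1. The letters CANNTG occurred in 7 of the 14 member windows, from 5 genes (Neurog1, Neurod1, Neurod4, Elavl3 and Elavl4), against 72.3% of 32851 mouse promoter windows of the same length. The form CAGCTG, which is a special case of CANNTG, stood in 4 member windows of 3 genes and in 16.3% of all windows. The form CAGATG, searched on both strands, stood in 3 windows, all of Elavl4, against 17.2% of all windows. TATAAA, searched on both strands, stood in 3 member windows, of Elavl3 and Dcx, against 13.6% of all windows. Some windows of the same gene overlap, so a site can be counted more than once. The Dcx windows share their TATAAA, and overlapping Elavl4 windows share CAGCTG and CAGATG. A missing match says only that these letters are not in that window.

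Neurog1 (neurogenin 1) starts neurogenesis in cranial sensory ganglia and in parts of the neural tube. Its level was 20.4 and 19.5 CPM in the wild type samples, 24.1 CPM in the heterozygote, then 35.7 and 18.7 CPM in EpoR-null replicates 1 and 2. Replicate 1 lay above all controls (21.3 ± 2.42 CPM, mean ± SD, n = 3) and replicate 2 just below them, so the EpoR-null samples bracketed the controls.

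Neurog2 (neurogenin 2) starts neurogenesis in motor neuron and dorsal interneuron progenitors. It had 54.7 and 42.1 CPM in wild type, 68.9 CPM in the heterozygote, then 52.1 and 50.2 CPM in EpoR-null replicates 1 and 2. Both EpoR-null values fell inside the range of the controls and were 1.04-fold apart, less than the 1.30-fold between the wild type samples. Neurog2 was the only member for which neither EpoR-null sample left the range of the controls.

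Atoh1 is the proneural factor of the most dorsal interneurons and of the rhombic lip, where cerebellar granule neurons arise. It was the scarcest member, with 2.11 and 1.26 CPM in wild type (51 and 53 reads), 3.11 CPM in the heterozygote, then 5.0 CPM (99 reads) and 0.599 CPM (17 reads) in EpoR-null replicates 1 and 2. The EpoR-null samples were the highest and the lowest of the 5.

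Neurod1, which acts after the neurogenins in differentiating neurons, had 14.2 and 8.08 CPM in wild type and 13.8 CPM in the heterozygote. EpoR-null replicate 1 had 33.9 CPM and replicate 2 had 5.04 CPM, a 6.74-fold difference, against 1.75-fold between the wild type samples. In the GENCODE M21 annotation its exons overlap those of Cerkl and of the long noncoding RNA Gm26755, so the counting could have lost reads. The authors worked on mm9, and whether their annotation held these overlaps was not checked.

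Neurod4, a factor of the same family, had 69.5 and 44.7 CPM in wild type and 76.2 CPM in the heterozygote. EpoR-null replicate 1, with 73.0 CPM, was within the controls, and replicate 2, with 23.1 CPM, was below them. It was thus the member that was low in 1 EpoR-null sample without being high in the other.

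Elavl3 (HuC) and Elavl4 (HuD) encode RNA-binding proteins that stabilise transcripts in newborn neurons. Elavl3 had 68.3 and 45.03 CPM in wild type, 86.1 CPM in the heterozygote, then 140.6 and 28.4 CPM in EpoR-null replicates 1 and 2. Elavl4 had 76.8 and 54.5 CPM in wild type, 89.8 CPM in the heterozygote, then 134.4 and 30.04 CPM in EpoR-null replicates 1 and 2. For both genes the 5 samples fell in the same order, EpoR-null replicate 1, heterozygote, wild type replicate 1, wild type replicate 2 and EpoR-null replicate 2. In the GENCODE M21 annotation the exons of Elavl3 overlap those of the predicted gene Gm49318 on the same strand.

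Tubb3 encodes the neuronal beta-tubulin and Dcx encodes doublecortin, a microtubule-binding protein of migrating neurons. Tubb3 had 157.1 and 132.6 CPM in wild type, 186.5 CPM in the heterozygote, then 454.4 and 104.2 CPM in EpoR-null replicates 1 and 2. Dcx had 34.0 and 14.7 CPM in wild type, 40.9 CPM in the heterozygote, then 101.1 and 4.33 CPM in EpoR-null replicates 1 and 2. Dcx was the most variable member, with a 23.3-fold difference between the EpoR-null samples and a 2.32-fold difference between the wild type samples.

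**Figure D1:**
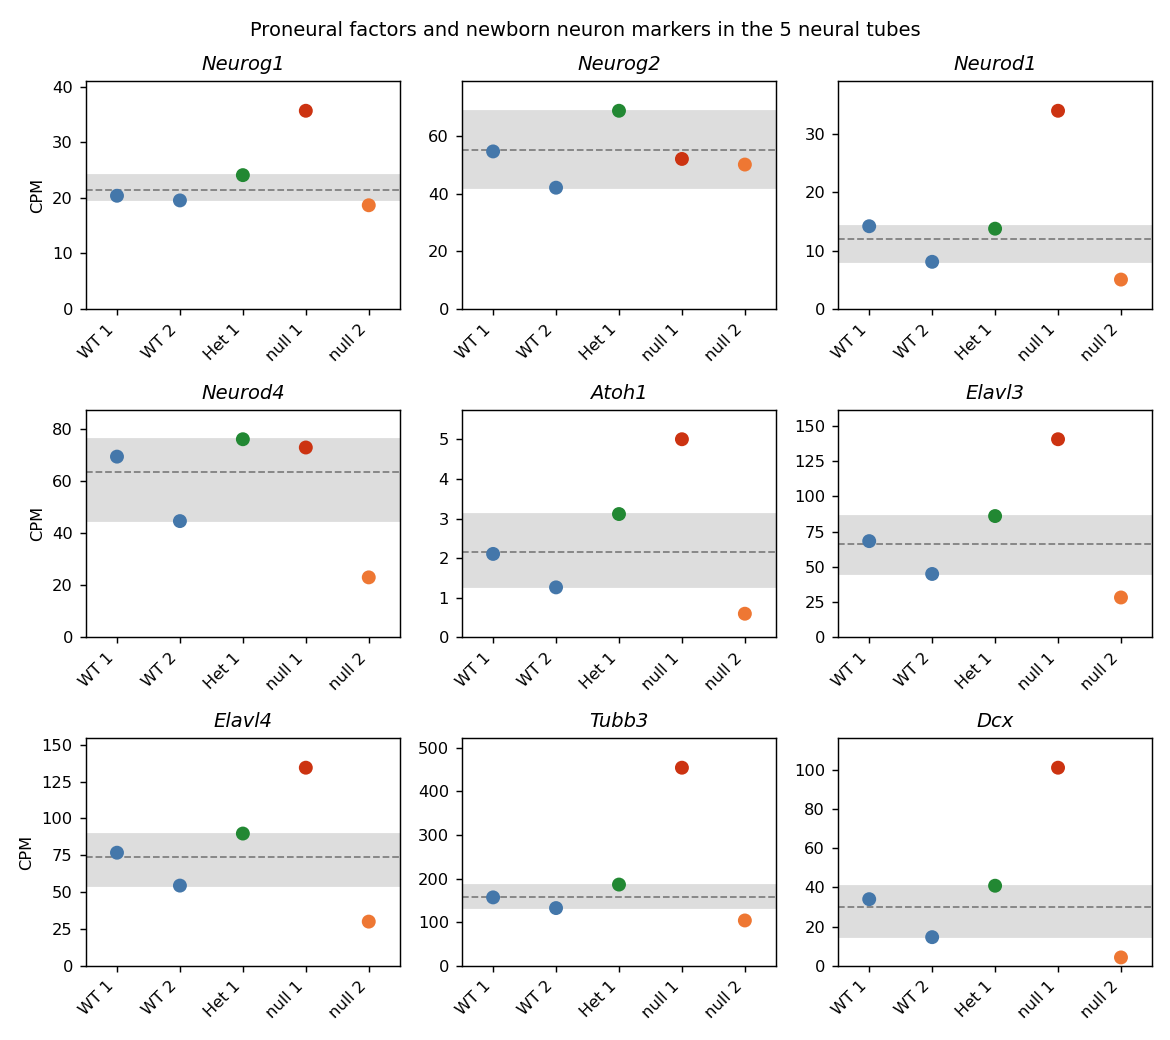
Level of each of the 9 genes in CPM (vertical axis of each panel, starting at 0) in the 5 samples, with the grey band showing the range and the dashed line the mean of the 3 controls. EpoR-null replicate 1 lay above the band for 7 genes and replicate 2 below it for 8 genes, while both Neurog2 values lay inside it.

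Per kilobase of transcript, the mean level in the controls ran from 85.0 CPM per kb for Tubb3 through 24.8 for Neurog2, 19.0 for Neurod4, 17.7 for Elavl4, 13.3 for Elavl3, 12.7 for Neurog1, 4.40 for Neurod1 and 3.29 for Dcx to 1.02 for Atoh1. Control levels of Neurod4 and Elavl4 (63.5 ± 16.6 and 73.7 ± 17.8 CPM before division by length, SD, n = 3) each varied by more than the step between these neighbours per kilobase. The same held for Elavl3 and Neurog1, and for Neurod1 and Dcx. Lengths were those of the longest annotated transcript, and the order depends on them.

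Across the 9 genes, 7 (Neurog1, Neurod1, Atoh1, Elavl3, Elavl4, Tubb3 and Dcx) were above all 3 controls in EpoR-null replicate 1 and below all 3 in replicate 2. Over all genes tested, 9.73% showed this pattern and 10.9% showed its opposite. Replicate 1 lay above all controls in 7 of 9 members, against 39.1% of all genes, and below all controls in none, against 37.6%. Replicate 2 lay below all controls in 8 of 9, against 39.4%, and above all controls in none, against 41.9%. No member had both EpoR-null samples beyond the controls on the same side, whereas 43.3% of all genes did. Replicate 1 exceeded replicate 2 by more than 2-fold in 7 members (all but Neurog1, at 1.91-fold, and Neurog2), against 8.56% of all genes. Between the wild type samples only Dcx passed 2-fold, against 0.866% of all genes. The controls had an order of their own. Wild type replicate 2 was the lowest control for all 9 members, against 41.6% of all genes, and the heterozygote the highest for 8, against 35.5%.

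When the EpoR-null samples were pooled against the 3 controls, none of the 9 members was called (edgeR exact test, p < 0.001 and false discovery rate, FDR, < 0.05), while 606 of the 12703 genes tested were (4.77%). No member had an unadjusted p under 0.05, which 19.8% of all genes had. The quasi-likelihood test of edgeR, with and without the replicate block, and DESeq2 also found 0 of 9 at FDR < 0.05, although DESeq2 gave no adjusted p for Atoh1. Over all genes that threshold was passed by 7.31% in the exact test, 5.47% in the quasi-likelihood test with the block, 13.7% in DESeq2 and none in the quasi-likelihood test without the block, which therefore could call no member. Log2 fold changes, EpoR-null over control, ran from -0.40 ± 0.51 (standard error) for Neurod4 to 0.82 ± 1.10 for Dcx. The standard error was larger than the change for 7 members and smaller for Neurog1 (0.35 ± 0.33, FDR = 0.6025) and Tubb3 (0.82 ± 0.59, FDR = 0.4514). With 3 samples against 2, an exact permutation test of 1 gene cannot go below p = 0.1. These pooled values rested on single libraries. Without EpoR-null replicate 1 the exact test called 3 members, all lower, and without replicate 2 it called 4, all higher.

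Each EpoR-null sample was therefore set against the 3 controls by itself, with the spread estimated from the controls and the lone sample assumed to vary like them. The 2 comparisons share the control samples, and each describes 1 sample and not the genotype. In replicate 1, 4 of 9 members were higher at both thresholds (Neurog1, Neurod1, Tubb3 and Dcx) and none was lower, against 2.66% of all genes called higher and 5.1% called lower. Tubb3 was higher by a log2 fold change of 1.52 ± 0.21 (FDR = 9.521e-12, edgeR exact test), or 2.86-fold over the mean of the controls. Dcx was higher by 1.76 ± 0.56 on the log2 scale (FDR = 0.008254), a call that DESeq2 did not make (FDR = 0.1274). Neurod1 was higher by 1.504 ± 0.40 (FDR = 0.001419) and Neurog1 by 0.74 ± 0.23 (FDR = 0.01112). Elavl3 (1.08 ± 0.35, FDR = 0.01374) and Elavl4 (0.87 ± 0.28, FDR = 0.01496) passed the FDR threshold but not that on p, which brought the count to 6 of 9, against 4.95% of all genes. Atoh1 (1.22 ± 0.63), Neurod4 (0.20 ± 0.31) and Neurog2 (-0.08 ± 0.29) did not pass.

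In replicate 2, 3 of 9 members were lower at both thresholds (Neurod4, Elavl4 and Dcx) and none was higher, against 10.2% of all genes called lower and 8.06% called higher. Dcx was lower by a log2 fold change of -2.78 ± 0.58 (FDR = 0.0007374, edgeR exact test), which is 6.90-fold below the mean of the controls. The log2 fold change was -1.46 ± 0.32 for Neurod4 (FDR = 0.0003404) and -1.29 ± 0.29 for Elavl4 (FDR = 0.0003959). Elavl3 (-1.23 ± 0.36, FDR = 0.008782), Neurod1 (-1.25 ± 0.46, FDR = 0.04547) and Tubb3 (-0.60 ± 0.21, FDR = 0.0267) passed the FDR threshold alone, 6 of 9 in all, against 15.8% of all genes. Atoh1 (-1.83 ± 0.71), Neurog1 (-0.19 ± 0.24) and Neurog2 (-0.14 ± 0.28) did not pass. With the replicate number as a block, only wild type replicate 2 shared a block with EpoR-null replicate 2. The quasi-likelihood test then compared EpoR-null replicate 2 with that sample alone, and Dcx changed by -1.77 and Elavl4 by -0.87. That sample was the lowest control for all 9 members. In the exact test Dcx was called in both EpoR-null samples, in opposite directions. Fewer neurons in a tube and less RNA per neuron cannot be told apart in bulk tissue.

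**Figure D2:**
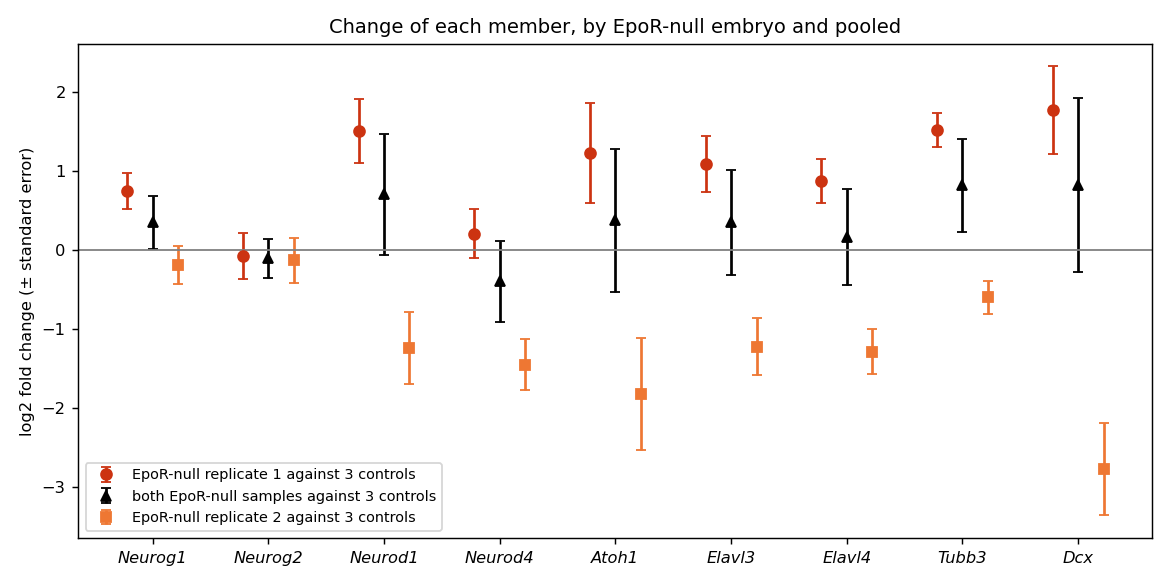
Log2 fold change of each gene (horizontal axis) against the 3 controls, with standard errors as bars, for each EpoR-null sample and for both pooled. Replicate 1 ran from -0.08 (Neurog2) to 1.76 (Dcx) and replicate 2 from -2.78 (Dcx) to -0.14 (Neurog2), with the pooled estimates of most genes in between.

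These single-sample counts moved with the choice of control. Without the heterozygote, 7 members were called higher in replicate 1, against 5.11% of all genes, and 6 lower in replicate 2, against 12.6%. Without wild type replicate 1, the count in replicate 1 was 2, against 0.944% of all genes, with Neurog1 (FDR = 0.3214) and Dcx (FDR = 0.05991) lost. Without wild type replicate 2, the count in replicate 2 was 6, against 13.3% of all genes. The quasi-likelihood test without the replicate block left 1 member higher in replicate 1 (0.744% of all genes) and 0 lower in replicate 2 (5.3%). With the block, the comparison of replicate 1 no longer used wild type replicate 2, and that of replicate 2 used wild type replicate 2 alone. Dcx in replicate 1 then changed by 1.44, as it did in the exact test without wild type replicate 2. Counts with the block rest on fewer controls, so they are not set beside the others. Scaling by library size only gave 6 members higher in replicate 1 (2.98% of all genes) and 4 lower in replicate 2, where 13.8% of all genes were then lower and 4.19% higher. A correction for transcript length and GC content (likelihood-ratio test) moved members both ways. It took away the call of Neurog1 in replicate 1, where the log2 fold change became 0.48. In replicate 2, Dcx went from -2.78 to -1.87 and Tubb3 from -0.60 to -1.06.

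The wider pathway was read from 7 lists with 123 genes, 121 of them in the tables and 110 tested: other bHLH factors, E and Id proteins, the Notch pathway, downstream targets, neuronal cytoskeleton and adhesion, neuronal RNA-binding proteins and factors of neuron subtypes. Some genes stand in more than 1 list. With both EpoR-null samples together, 4 of 110 were called lower and 2 higher, against 3.84% and 0.929% of all genes, and in each of these 6 genes the EpoR-null samples left the range of the controls in 1 common direction. The quasi-likelihood test without the replicate block called none of them (FDR 0.05898 to 0.0981).

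The lower share of these lists was thus close to that of all genes. The Notch list had 3 of its 21 tested genes called lower and none higher. Mib1, a ubiquitin ligase that lets cells send the Notch signal, had 83.8, 71.3 and 92.6 CPM in the controls (wild type 1 and 2, heterozygote) and 37.4 and 18.6 CPM in the EpoR-null samples (log2 fold change -1.56 ± 0.32, FDR = 0.0004803, exact test). The receptor Notch2 had 100.8, 90.7 and 98.2 CPM in the controls and 62.0 and 57.6 CPM in the EpoR-null samples (-0.69 ± 0.14, FDR = 8.876e-05). The receptor Notch3 had 163.5, 168.2 and 170.8 CPM in the controls and 111.3 and 104.4 CPM in the EpoR-null samples (-0.64 ± 0.13, FDR = 0.0001802). The pooled test favours genes with like values in both EpoR-null samples, and even so Mib1 differed 2.01-fold between them. With the correction for length and GC content Mib1 was still called, while Notch2 (-0.16, FDR = 0.9993) and Notch3 (-0.28, FDR = 0.8253) were not. Notch2 also lost its call without wild type replicate 1 (FDR = 0.06216).

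The fourth lower gene was Msi1, an RNA-binding protein of neural progenitors, with 239.5, 263.8 and 255.8 CPM in the controls and 173.7 and 180.6 CPM in the EpoR-null samples (log2 fold change -0.51 ± 0.14, FDR = 0.007117). The higher genes both encode regulators of the neuronal cytoskeleton. Dpysl2 (CRMP2) had 102.0, 106.4 and 101.2 CPM in the controls and 189.8 and 191.1 CPM in the EpoR-null samples (0.88 ± 0.13, FDR = 2.294e-09). Stmn1, a microtubule-destabilising protein also abundant in dividing cells, had 532.9, 488.4 and 520.3 CPM in the controls and 911.1 and 667.9 CPM in the EpoR-null samples (0.62 ± 0.19, FDR = 0.01667). The call of Stmn1 was lost with the correction for length and GC content (0.21, FDR = 0.9993), with scaling by library size only (FDR = 0.06221) and without any 1 of the 3 controls (FDR 0.1346 to 0.2518). That of Msi1 was lost without any 1 of the 3 controls (FDR 0.09502 to 0.142). Without EpoR-null replicate 1 both genes kept an FDR under 0.05 but missed the threshold on p.

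Sample by sample, the wider lists followed the members in part. In replicate 1, 32 of 110 genes were called higher, against 2.66% of all genes, and 6 lower, against 5.1%. In replicate 2, 29 of 108 were called lower, against 10.2%, and 6 higher, against 8.06%. Replicate 1 was above and replicate 2 below all controls in 52 of 110 genes, against 9.73%, and the opposite pattern held in 6, against 10.9%. The cytoskeleton and adhesion list had a median log2 fold change of 0.88 in replicate 1 (16 of 25 called higher, none lower) and of -0.77 in replicate 2 (7 called lower, 1 higher). The list of downstream targets had medians of 0.82 and -0.56 (7 of 23 called higher in replicate 1, 8 lower in replicate 2, none the other way). The subtype factors had medians of 1.09 and -1.67 (5 of 14 called higher in replicate 1, 3 of 12 lower in replicate 2). The 9 members had medians of 1.08 and -1.25, and all genes tested of 0.00 and 0.01.

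The remaining lists are read against the same shares of all genes, 2.66% higher and 5.1% lower in replicate 1 and 8.06% higher and 10.2% lower in replicate 2, and with so few genes counts of 1 or 2 are close to those shares. The Notch list had medians of -0.04 and -0.38 in replicates 1 and 2 (1 higher and 3 lower of 21 in replicate 1, 2 higher and 6 lower in replicate 2). E and Id proteins, the partners and the antagonists of the bHLH factors, had medians of 0.01 and 0.24 (none of 7 called in replicate 1, 2 higher and 2 lower in replicate 2). Other bHLH factors had medians of 0.85 and -0.48 (3 higher and 2 lower of 11, then 1 higher and 1 lower). Neuronal RNA-binding proteins had medians of 0.20 and -0.54 (1 higher and 1 lower of 12, then 2 lower). The neural progenitor markers had medians of -0.12 and -0.23 (2 higher and 2 lower of 12, then 2 lower).

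**Figure D3:**
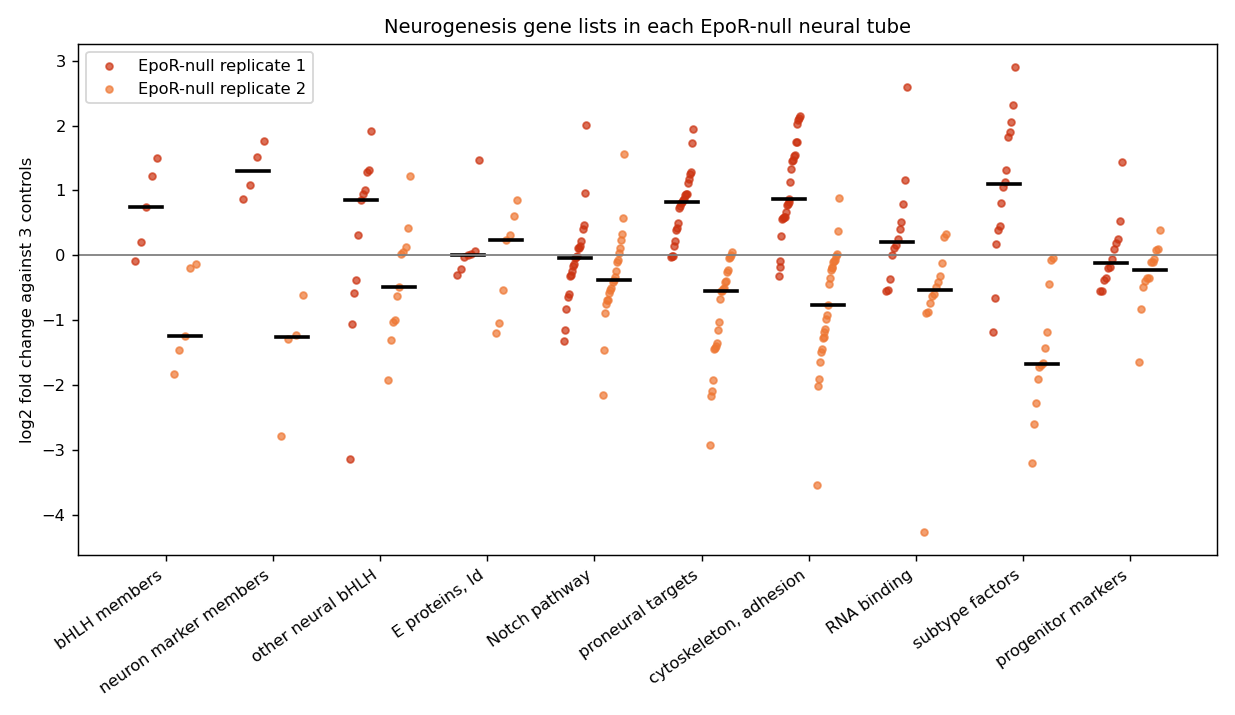
Log2 fold change against the 3 controls (vertical axis) of the genes of each list (horizontal axis) in EpoR-null replicate 1 and replicate 2. Points are genes and black bars are medians. The medians of the lists of neuronal genes lay on opposite sides of 0 in the 2 samples. Those of E and Id proteins, the Notch list and progenitor markers stayed within 0.38 of 0, while single genes of these lists went further.

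A few genes of these lists show the range, and were chosen after their values were seen. Nhlh2, a bHLH factor of neurons that have left the cycle, had 31.7, 16.2 and 38.2 CPM in the controls and 108.3 and 7.54 CPM in the EpoR-null samples. Nefm, a neurofilament subunit, had 57.2, 34.2 and 76.5 CPM in the controls and 227.3 and 17.8 CPM in the EpoR-null samples. Cntn2, an adhesion protein of early axons, had 42.7, 17.0 and 58.7 CPM in the controls and 170.5 and 3.38 CPM in the EpoR-null samples. All 3 were called higher in replicate 1 and lower in replicate 2, as Dcx was. The other 3 examples departed from the pattern of the members. Olig2, of motor neuron progenitors, went the other way in replicate 1, with 39.9 CPM against 76.3, 86.8 and 85.4 CPM in the controls (log2 fold change -1.06 ± 0.15, FDR = 2.524e-09), and had 90.4 CPM in replicate 2. Tcf4, an E protein, had 139.4, 101.3 and 131.7 CPM in the controls, 125.0 CPM in replicate 1 and 60.0 CPM in replicate 2, where it was called lower (FDR = 3.316e-05). Id3, an antagonist of E proteins, had 131.5, 168.1 and 142.6 CPM in the controls, 145.7 CPM in replicate 1 and 266.8 CPM in replicate 2, where it was called higher (FDR = 5.52e-05).

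Markers of other tissues and of position differed between the same samples. The 5 bHLH members summed to 160.9, 115.8 and 186.0 CPM in the controls and to 199.8 and 97.6 CPM in the EpoR-null samples, and the 4 neuron markers to 336.3, 246.8 and 403.2 CPM and to 830.5 and 166.9 CPM. Cranial placode and sensory markers (14 genes, 3 of them under 1 CPM in all samples) summed to between 127.6 and 153.7 CPM in the controls and to 197.1 and 106.8 CPM in the EpoR-null samples, which placed the EpoR-null samples at both ends as for most members. Neural crest markers (10 genes) summed to between 87.9 and 229.1 CPM in the controls and to 284.2 and 162.5 CPM in the EpoR-null samples. In each of these lists replicate 1 was above replicate 2, as for the members. Mesoderm markers (15 genes, 6 under 1 CPM in all samples) reached 136.5 CPM in replicate 1 and 58.7 CPM in replicate 2. Erythroid markers (9 genes) had 1694 and 966.2 CPM there. Surface ectoderm and gut markers (10 genes, 6 under 1 CPM in all samples) summed to between 11.5 and 36.7 CPM in the controls and to 25.6 and 41.1 CPM in the EpoR-null samples.

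The regional markers ran the opposite way, with sums of 494.0, 461.8 and 533.1 CPM in the controls and 386.5 and 588.4 CPM in the EpoR-null samples. Of 10 regional markers tested, 6 were below all controls in replicate 1 and above all controls in replicate 2, against 10.9% of all genes. Of these, Cdx2 and Hoxb9 were picked after their values were seen. Cdx2, a gene of the caudal end of the embryo, had 3.02, 1.41 and 2.90 CPM in the controls, 0.152 CPM (3 reads) in replicate 1 and 10.04 CPM in replicate 2, and was called lower in the first (FDR = 0.00157) and higher in the second (FDR = 0.0008787). Hoxb9, a gene of the trunk, had 151.9 CPM in replicate 1 against 256.5 to 295.4 CPM in the controls (log2 fold change -0.85 ± 0.14, FDR = 1.076e-06), and 316.4 CPM in replicate 2. The forebrain and midbrain genes Otx2, Six3 and En2 were under 1 CPM in all 5 samples. The part of dissection level, stage and tissue content in the difference between the EpoR-null samples was not tested.

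**Figure D4:**
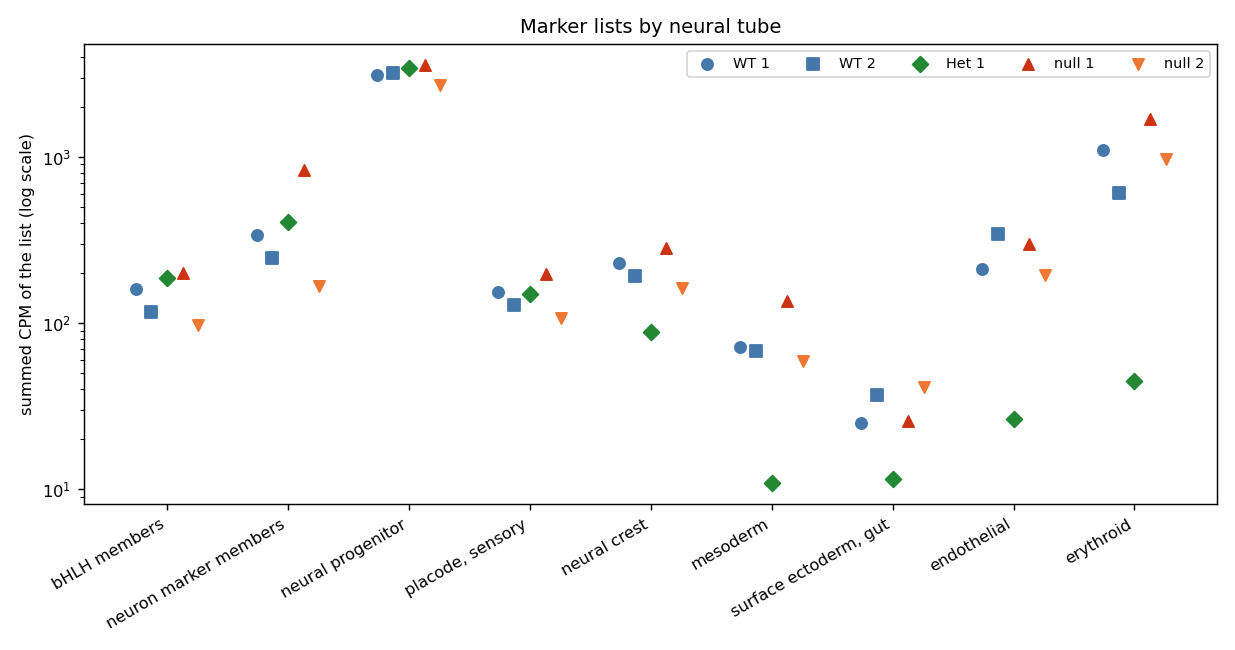
Summed CPM (vertical axis, logarithmic scale) of each marker list (horizontal axis) in each of the 5 samples. The 4 neuron markers spread from 166.9 to 830.5 CPM, with the EpoR-null samples at both ends, while the heterozygote was lowest for the crest, mesoderm, surface ectoderm, endothelial and erythroid lists.

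Genes whose level followed the members most closely across the 5 samples were found by the distance between centred profiles of log2(CPM + 0.5). Nearest to the mean of the bHLH members were Trp53inp1 (distance 0.120), Aldh1b1 (0.133) and Zmat1 (0.149). Nearest to the mean of the neuron markers were Isl1 (0.180), Gm16551 (0.195) and L1cam (0.209). Isl1, a factor of motor and sensory neurons, had 26.6, 14.7 and 27.8 CPM in the controls and 56.9 and 8.56 CPM in the EpoR-null samples, and L1cam, an adhesion protein of axons, had 13.8, 9.51 and 14.7 CPM and then 31.7 and 4.51 CPM. Among the members, Elavl3 was closest to the neuron mean (0.319) and Dcx farthest (1.30), while among the bHLH members Neurod4 was closest to its group's mean (0.599) and Neurog2 farthest (1.04). Likeness over 5 samples is a description of these libraries.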

How the data were processed

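RNA of 5 neural tube samples was analysed (2 EpoR-null, 2 wild type and 1 heterozygote, grouped by their labels). According to the submitters' processing notes, the authors used Trimmomatic 0.32 for trimming, TopHat2 2.1.0 for alignment to mm9 and HTSeq 0.6.1 for counting per gene. They deposited raw read counts, 1 table per sample. HTSeq leaves out reads that fit several places or genes. Whether strand was used is not given in the sources used here, so overlapping genes are uncertain. The summary lines were not used as genes (reads on no gene 8.12 to 11.0% and ambiguous reads 1.85 to 2.31% of uniquely aligned reads).

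From these counts, the genes kept were those that exceeded 1 CPM in 2 or more samples. They were tested with edgeR 4.0.16 (R 4.3.3, limma 3.58.1), using TMM factors, tagwise dispersions and the exact test, which the study's methods name, on all genes together with Benjamini-Hochberg adjustment. Calls of the exact test needed p < 0.001 and FDR < 0.05. Each EpoR-null sample was tested alike against the 3 controls. CPM are on TMM-scaled library sizes, and standard errors come from the negative binomial information. The exact test was tried on simulated data with 1 fixed dispersion, for both EpoR-null samples and for replicate 1 against the 3 controls. The other fits were not tried in this way. The alternatives were the quasi-likelihood test with and without the replicate number as a block, DESeq2 1.42.0, other scalings and filters, each sample left out, and offsets for transcript length and GC content (GENCODE M21, 90.7% of tested genes matched). Those for the single-sample tests were chosen after seeing the data.

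The members and lists were chosen with earlier results of these data known. Genes named by rule were the 9 members, called genes of the wider lists for which each EpoR-null sample left the range of the controls, and the 3 nearest profiles per subgroup. Further genes of the wider and regional lists (Nhlh2, Nefm, Cntn2, Olig2, Tcf4, Id3, Cdx2 and Hoxb9) were chosen after their values were seen, and Sox2, Otx2, Six3 and En2 check the tissue. Map1b and Map2 were not analysed here. Depth limits Atoh1 most. Arms of 1 to 3 samples limit all tests.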

Additional observations from a re-analysis of the deposited data

How the results depend on the processing

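No member was called in the pooled comparison under any alternative that kept all samples. Leaving out single samples gave 0 to 4 members called, and each member's pooled log2 fold change then changed sign, over -2.78 to 1.76 for Dcx, -1.83 to 1.22 for Atoh1, -1.25 to 1.504 for Neurod1, -1.23 to 1.08 for Elavl3, -1.29 to 0.87 for Elavl4, -0.60 to 1.52 for Tubb3, -1.46 to 0.20 for Neurod4, -0.19 to 0.74 for Neurog1 and -0.27 to 0.079 for Neurog2. For single EpoR-null samples only Neurog2 did so, over -0.24 to 0.10 in replicate 1 and -0.33 to 0.047 in replicate 2.

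Genes past both thresholds numbered 606, and 928 by FDR alone, 1028 by DESeq2, 0 by the quasi-likelihood test without the replicate block, 159 with length and GC offsets (likelihood-ratio test) and 115 to 2296 with single samples left out (115 without wild type replicate 1, 294 without wild type replicate 2, 253 without the heterozygote, 2296 without EpoR-null replicate 1 and 980 without EpoR-null replicate 2). The wider list gave 6, 0 by the quasi-likelihood test, and 3 to 38 with single samples left out (3 without wild type replicate 1, 35 and 38 without EpoR-null replicates 1 and 2). Members called higher in EpoR-null replicate 1 numbered 4, 1 by the quasi-likelihood test, and 2 to 7 with controls left out. Members called lower in replicate 2 numbered 3, 6 by FDR alone, 0 by the quasi-likelihood test, and 3 to 6 with controls left out. The cause of these shifts was not tested.

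The replicate numbers are shared by wild type and EpoR-null samples, but the labels do not say what they mark. The difference between replicates 1 and 2 in wild type and that in EpoR-null had a Pearson correlation of 0.468 and a Spearman correlation of 0.538 across 12703 genes, which are not independent replicates. With the replicate block, the quasi-likelihood test called 291 genes and 0 members in the pooled comparison. In the single-sample tests the block set EpoR-null replicate 1 against wild type replicate 1 and the heterozygote only. It set EpoR-null replicate 2 against wild type replicate 2 alone, where Neurog2 changed sign (0.24). With the replicate block and offsets the quasi-likelihood test called 0 genes and 0 of the wider list in the pooled comparison. Those counts do not describe the single EpoR-null samples. In this setting Atoh1 (-0.044, pooled), Neurod4 (-0.049, replicate 1) and Neurog2 (0.014, replicate 2) changed sign.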
